A study of Mus musculus with 8 samples.

Results

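The homeodomain-interacting protein kinases Hipk1, Hipk2, Hipk3 and Hipk4 were followed probe by probe in medullary thymic epithelial cells (mTECs) from mice in which Hipk2 had been deleted only in thymic epithelium and from control mice. The array annotation listed 7 probes under these 4 gene symbols, of 46089 probes on the array: 4 for Hipk2 and 1 for each of the others. Another 2 probes were listed under names that RefSeq gives as synonyms of a family gene and of no other gene: 1110014O20Rik for Hipk2 and Myak for Hipk1. They are described under those names, because the match rests on the name alone, and their values are kept apart from the 7. Of the 9 probes, 6 passed the filter on low signal and were tested (4 of the 7 and both older names). The 8 arrays covered 4 groups of 2 biological replicates: CD80low and CD80high mTECs of wild-type mice from the matings (control), and the same subsets of mice with the TEC-specific Hipk2 gene knockout. CD80 is a costimulatory protein that is high on mature mTECs and low on immature ones. The sources used here do not state age, strain, the deleted exons, the Cre driver or whether mice were pooled.

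Hipk1, Hipk2 and Hipk3 are nuclear serine/threonine kinases that bind homeodomain transcription factors and sit in nuclear bodies, where they phosphorylate corepressors, p300 and, for Hipk2, p53. Hipk2 protein is kept low by Siah ubiquitin ligases and accumulates after DNA damage. Hipk4 lacks the homeodomain-binding region and is known from mouse testis. Medullary thymic epithelial cells display antigens of other tissues to developing T cells.

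The start regions are shown for the gene deleted in these mice, Hipk2, and for Hipk4, whose probe did not pass the filter in any group. Both windows come from RefSeq, build GRCm38.p6, and hold 250 bases before and 50 after the start. Capitals mark each match to GGGCGG, the GC box bound by Sp1-type factors, on either strand, overlapping matches included.
Hipk2, chr6:38876141-38876440, minus strand: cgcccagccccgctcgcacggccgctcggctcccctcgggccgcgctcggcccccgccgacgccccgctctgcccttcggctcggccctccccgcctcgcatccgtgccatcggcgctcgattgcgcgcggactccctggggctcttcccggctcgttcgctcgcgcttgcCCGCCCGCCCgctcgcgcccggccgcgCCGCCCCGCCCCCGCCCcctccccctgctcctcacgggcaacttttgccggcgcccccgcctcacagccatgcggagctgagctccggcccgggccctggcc
Hipk4, chr7:27523011-27523310, plus strand: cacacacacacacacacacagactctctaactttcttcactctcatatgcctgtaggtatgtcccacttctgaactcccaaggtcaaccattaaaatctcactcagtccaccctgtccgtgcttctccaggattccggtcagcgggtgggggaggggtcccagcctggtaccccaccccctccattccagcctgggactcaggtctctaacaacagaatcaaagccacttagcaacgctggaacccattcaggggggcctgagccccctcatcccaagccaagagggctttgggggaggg
The Hipk2 window was 80.7% G and C, with 48 CpG pairs and 5 matches to the GC box. The Hipk4 window was 56.3% G and C, with 4 CpG pairs and 0 matches. Hipk3 had 3 matches, and 0 were found in a second Hipk2 window and in both windows of Hipk1. Of 32851 windows of this length, 35.7% held at least 1 match, and the median G and C content was 52.7%. The TATA box TATAAA was in none of the 6 family windows, on either strand, against 13.6% of all windows. These matches describe letters only.

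A bead array reports probe brightness, with no read depth. Between 44.3% and 49.8% of probes lay above the background limit of their array, a one-sided 0.95 limit of the dim values that stood at 105.8 to 113.1 intensity units. Replicates correlated at r = 0.965 to 0.984 across probes. Of 9 epithelial markers tested, Krt8, Krt14 and Cldn4 were high on all arrays. Krt5 ranged from 9.05 to 12.09 (log2) and H2-Aa from 11.80 to 13.14. Aire and Cd80 were higher on every CD80high than on every CD80low array. The Epcam probe stayed between 4.88 and 5.59, near background. Foxn1 was also dim, at 5.40 to 5.80 on the CD80low and 6.24 to 6.87 on the CD80high arrays. Thymocyte markers (10 of 14 tested, with Cd4 at only 4.90 to 5.57) averaged 8.87 and 8.92 (log2) on replicate 1 of control and knockout CD80low cells but 6.83 and 6.81 on replicate 2, against 6.02 to 6.30 on the CD80high arrays. The mean of the erythroid markers (5 of 8 tested) was also higher on replicate 1 of CD80low cells, at 7.88 and 7.54 against 6.08 and 6.41. It stood at 8.31 to 8.88 on the CD80high arrays. The CD80low gap came from the globins Hbb-b1 and Hba-a1 (12.16 and 11.99 on control replicate 1 against 7.38 and 7.54 on replicate 2). Slc4a1 and Car1 were lower on replicate 1 in both genotypes, and Alas2 was higher there in controls only. Myeloid markers (5 of 8 tested) averaged 6.61 to 7.16 in CD80low and 8.94 to 9.19 in CD80high cells. Fibroblast and endothelial markers (6 of 8 tested) averaged 6.46 and 6.08 in control CD80low, 5.93 and 5.89 in knockout CD80low and 5.30 to 5.63 in CD80high cells. All 6 had negative differences between knockout and control CD80low cells (median -0.41), 2 of them under an unadjusted p of 0.05 and 0 called. Between the genotypes 1 probe of 23378 was called in each subset, that of the dicarboxylate transporter Slc13a2, which was higher in knockouts (adjusted p = 1.50e-05 in CD80low and 1.86e-06 in CD80high cells, limma).

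The first question was whether the arrays registered the loss of Hipk2. The probe listed as 1110014O20Rik was dimmer on all 4 knockout arrays than on all 4 control arrays. Its deposited intensity was 1196 and 1912 in control CD80low cells and 737 and 934 in knockout CD80low cells. In CD80high cells it was 1496 and 1689 in controls and 538 and 714 in knockouts. The probe kept signal in the knockouts: every array stood above its background limit. On the normalised log2 scale the group means were 10.51 ± 0.51 (SD, n = 2) for control CD80low, 9.57 ± 0.26 for knockout CD80low, 10.56 ± 0.10 for control CD80high and 9.11 ± 0.33 for knockout CD80high cells. The control means of the subsets lay closer together than their replicates, and the knockout CD80high arrays were the lowest.

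The difference of this probe was -0.94 ± 0.276 (SE, log2, 95% interval -1.55 to -0.32) in CD80low cells, a level 1.91-fold lower in knockouts. In CD80high cells it was -1.46 ± 0.276 (95% interval -2.07 to -0.84), or 2.74-fold lower. Neither passed the adjustment over all 23378 probes (limma, adjusted p = 0.451 and 1.00, unadjusted p = 0.00679 and 3.55e-04). It ranked 351st of the probes by p in CD80low and 4th in CD80high cells. Averaged over both subsets the difference was -1.20 ± 0.195 (SE, adjusted p = 0.179, rank 13), which passed with a trended, robust variance prior (adjusted p = 0.0313). Leaving out control CD80low replicate 2 brought the CD80low difference to -0.57, and leaving out both CD80low arrays rich in thymocyte transcripts gave -1.11 there. With a single array left in a group, the spread was taken from the other groups, here and below. Fibroblast and endothelial markers were also lower in knockout CD80low cells, and their part in this difference was not tested. In bulk samples, fewer cells with the transcript and less of it per cell cannot be told apart.

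The probes listed as Hipk2 itself did not move together. Probe NM_010433.1, for the reference transcript, read 160.4 and 155.7 in control CD80low, 121.6 and 140.2 in knockout CD80low, 127.9 and 123.3 in control CD80high and 116.8 and 117.6 in knockout CD80high cells. It was thus lower in knockouts on every array of a subset, close above the background limit throughout. The fitted difference was -0.51 ± 0.212 (SE, log2) in CD80low cells and -0.19 ± 0.212 in CD80high cells, with adjusted p = 0.707 and 1.00. Without CD80low replicate 1 of both genotypes the CD80low value was -0.20, and on the log2 of the deposited values it was -0.28.

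Probe AK016742, from a cDNA entry, stood clearly above background and overlapped between genotypes. Its intensities in CD80low cells were 191.8 and 254.4 for controls and 214.6 and 203.3 for knockouts. In CD80high cells they were 244.9 and 229.9 for controls and 321.2 and 222.6 for knockouts. The log2 differences were -0.12 ± 0.267 (SE) in CD80low and 0.24 ± 0.267 in CD80high cells. Without knockout CD80high replicate 1, the brightest array, the second was -0.12. The 2 other Hipk2 probes were not tested. AK087674 read 89.2 to 113.6 and exceeded its limit on 1 array, and AK019821 read 91.8 to 109.1 and exceeded it on none. The position of these probes relative to the deleted exons was not known here, and a probe outside the deleted part does not check the deletion.

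**Figure D1:**
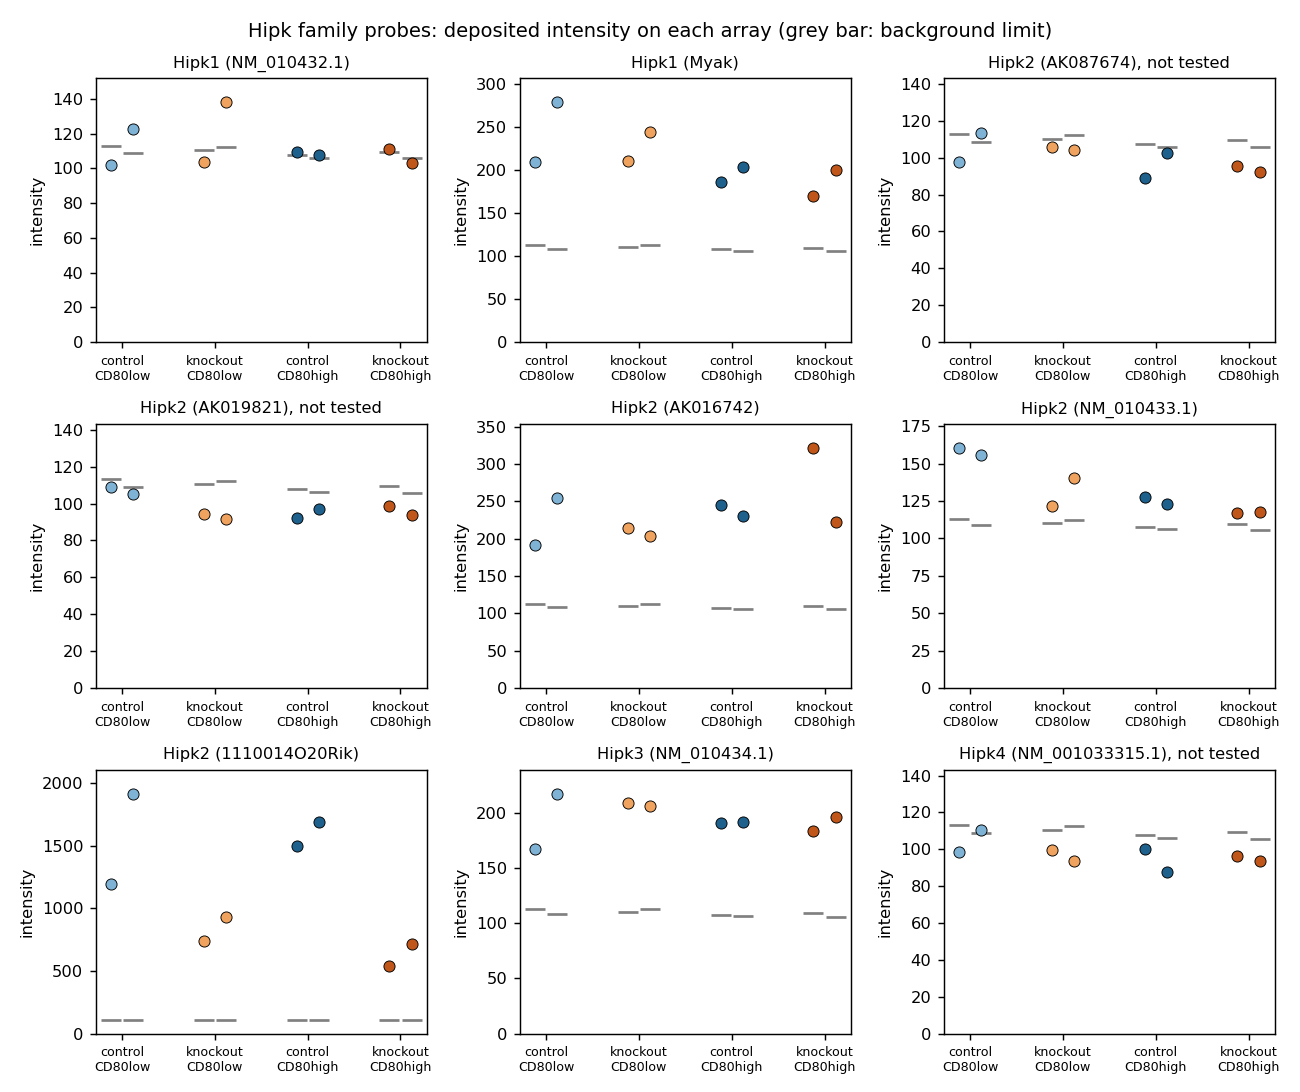
Deposited intensity (linear axis from 0) of all 9 probes, 1 panel per probe and 1 point per array, replicate 1 to the left, with grey bars at each array's background limit. The 1110014O20Rik probe falls from 1196 to 1912 in the control arrays to 538 to 934 in the knockout arrays, while AK016742, Myak and Hipk3 overlap between genotypes in at least 1 subset and 3 probes sit at or below the limit on most arrays.

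Hipk1, which with Hipk2 is needed for mouse embryonic development, was read by a dim and a brighter probe. Probe NM_010432.1 ranged from 102.1 to 138.0 and exceeded the limit on 5 of 8 arrays; only control CD80high cells had both arrays above it, so it was tested through that group alone. Its values were 102.1 and 122.6 in control CD80low, 103.9 and 138.0 in knockout CD80low, 109.7 and 107.7 in control CD80high and 111.3 and 102.9 in knockout CD80high cells. The genotypes overlapped in both subsets. The genotype differences were 0.28 ± 0.360 (SE, log2) in CD80low and -0.06 ± 0.360 in CD80high cells. The Myak probe was above background on every array. In CD80low cells it read 209.3 and 278.5 for controls and 210.8 and 244.7 for knockouts. In CD80high cells the values were 186.3 and 204.0 for controls, then 169.6 and 200.5 for knockouts. The genotypes overlapped in both subsets, with differences of -0.13 ± 0.238 (95% interval -0.66 to 0.39) and -0.10 ± 0.238 (-0.63 to 0.43).

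Hipk3, known in human cells as a kinase of the death adaptor Fadd, had the least variable tested probe of the family. Intensities were 167.3 and 216.8 in control CD80low, 208.2 and 206.1 in knockout CD80low, 190.9 and 191.9 in control CD80high and 183.6 and 195.7 in knockout CD80high cells. All arrays were above background and the genotypes overlapped in both subsets. The differences were 0.18 ± 0.210 (SE, log2, 95% interval -0.29 to 0.65) in CD80low and 0.01 ± 0.210 (-0.46 to 0.48) in CD80high cells. The Hipk4 probe read 87.6 to 110.5 and exceeded the limit on 1 of 8 arrays, control CD80low replicate 2. Signal from Hipk4 was thus not detectable above background in any group as a whole.

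Between the genotypes, 0 of the 4 tested probes listed by symbol were called at an adjusted p under 0.05 in CD80low cells, in CD80high cells or averaged over both. Over all tested probes 0.00428% were called in each of these comparisons. At an unadjusted p under 0.05, 1 of the 4 was below in CD80low cells (6.63% of all probes), 0 in CD80high cells (1.55%) and 1 averaged over both (4.83%), each time the NM_010433.1 probe of Hipk2. The 1110014O20Rik probe was below that level in all 3 comparisons, and Myak in none. The 4 probes had a median difference of 0.03 (log2) in CD80low and -0.02 in CD80high cells, against 0.01 and 0.00 over all tested probes. For the 2 older names it was -0.54 and -0.78, carried by 1110014O20Rik.

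An exact permutation test that relabelled genotypes within each subset (two-sided, 36 relabelings) gave p = 0.0556 for 1110014O20Rik and for NM_010433.1, the smallest value it can give. Adjusted over the 6 tested probes this was 0.167. For the other 4 probes p was 0.444 to 0.833. The design cannot reach 0.05 for a single probe with this test.

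**Figure D2:**
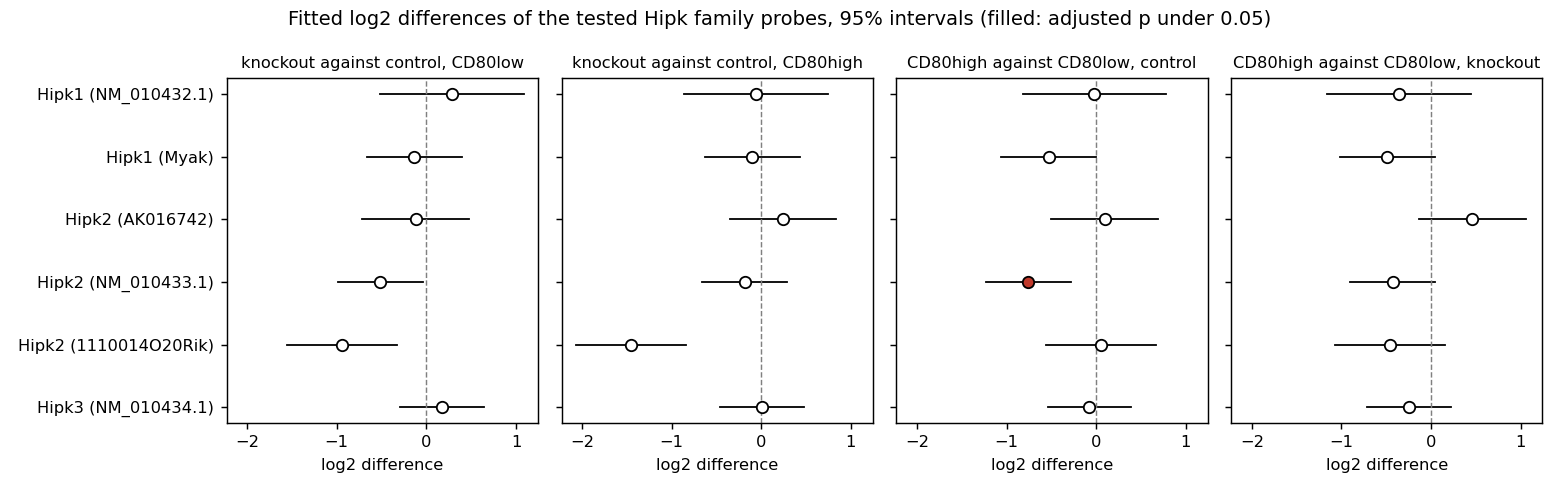
Fitted log2 differences of the 6 tested probes with 95% intervals, for knockout against control in each subset (left pair of panels) and CD80high against CD80low in each genotype (right pair); a filled point has an adjusted p under 0.05. The 1110014O20Rik intervals (-1.55 to -0.32 and -2.07 to -0.84) leave out 0 in both genotype panels without an adjusted call, and the 1 filled point is NM_010433.1 of Hipk2 in control cells.

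Whether the genotype difference itself depended on the subset was tested as an interaction. It was -0.52 ± 0.390 (SE, log2) for 1110014O20Rik and 0.33 ± 0.300 for NM_010433.1. Called were 0 of the 6 probes, and 0% of all 23378 tested probes (limma). At an unadjusted p under 0.05, 0 of the 6 and 3.23% of all probes were below. The larger fall of 1110014O20Rik in CD80high than in CD80low cells was therefore not separable from the replicate spread.

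**Figure D3:**
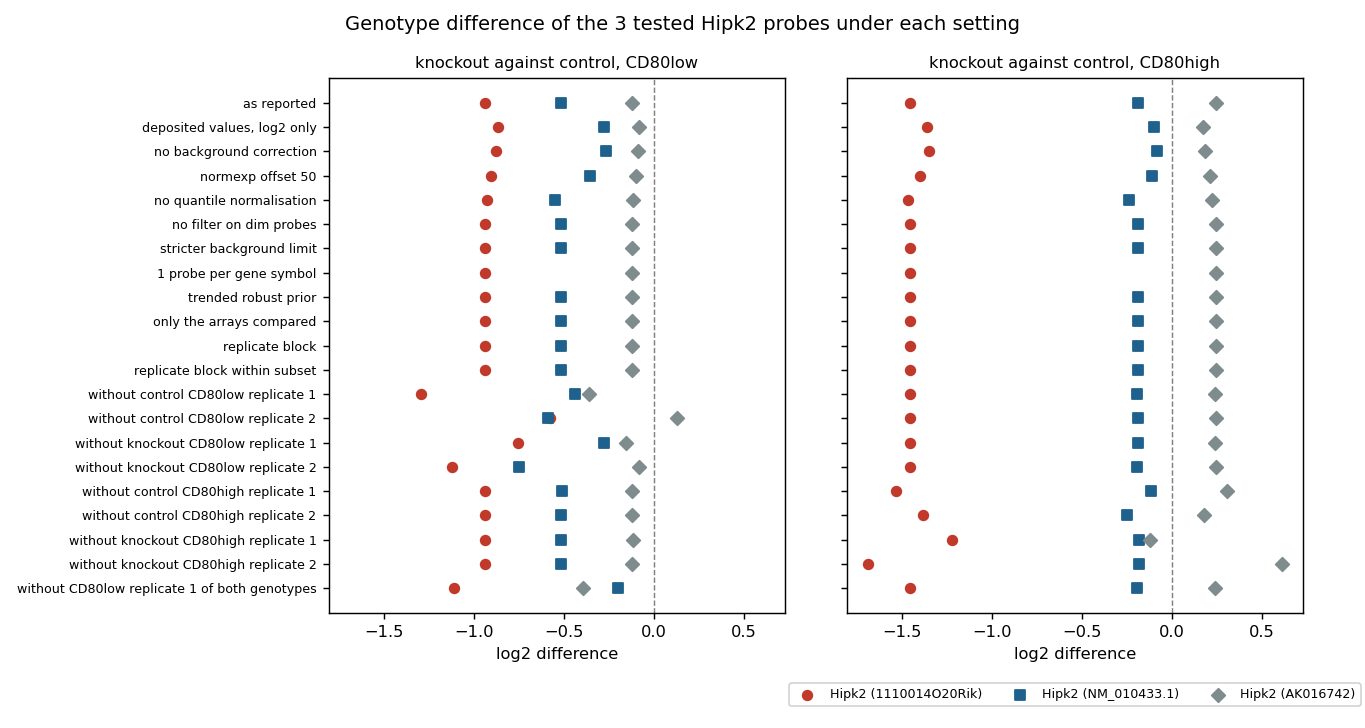
Log2 difference between knockout and control in CD80low cells (left) and CD80high cells (right), 1 row per processing setting or omitted array. Circles show 1110014O20Rik, tied to Hipk2 by name alone. The tested probes listed as Hipk2 are NM_010433.1 (squares) and AK016742 (diamonds). The squares have no point where 1 probe stands for each symbol. The circles stay negative throughout, from -1.30 to -0.57 in CD80low and -1.69 to -1.22 in CD80high cells, while the diamonds cross 0.

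The second question was how the family differed between CD80high and CD80low mTECs. In control cells 1 of the 4 tested probes was called: NM_010433.1 of Hipk2 was lower in CD80high cells by 0.76 on the log2 scale (-0.76 ± 0.212, SE, adjusted p = 0.0181, limma), or 1.69-fold. The size depends on the background correction: on the log2 of the deposited values the difference was -0.33 (adjusted p = 0.0415). Of all tested probes 37.5% were called in this comparison. The probe read 127.9 and 123.3 in CD80high and 160.4 and 155.7 in CD80low cells. The call was lost when control CD80low replicate 1 (adjusted p = 0.0795), control CD80high replicate 1 (0.0628) or control CD80high replicate 2 (0.108) was left out. Markers of some other cell types moved with this comparison. Called higher in control CD80high cells were 5 of 5 tested myeloid genes (median 1.95) and 3 of 5 erythroid genes (2.65), against 21.7% of all genes. Called lower were 3 of 6 fibroblast and endothelial genes (-0.64), against 18.7%. Of the thymocyte genes 2 of 10 were called lower, near that share. Their median was -1.88, and their means on the control CD80low replicates lay far apart (8.87 and 6.83). The part of these cell types in the call of NM_010433.1 was not tested. Without CD80low replicate 1 of both genotypes the difference was -0.68 (adjusted p = 0.0456).

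In knockout cells 0 of the 4 probes were called, against 36.6% of all probes, and the same probe differed by -0.43 ± 0.212 (adjusted p = 0.141). With only replicate 2 of the CD80low cells of both genotypes, NM_010433.1 differed by -0.68 in knockout cells. NM_010432.1 of Hipk1 was also lower in knockout CD80high cells in that fit. It was above its limit on 1 of the 2 knockout CD80high arrays, so no size is given. The Myak probe was lower in CD80high cells by similar amounts, -0.53 ± 0.238 in controls and -0.49 ± 0.238 in knockouts. It passed the threshold in neither (limma, adjusted p = 0.108 and 0.134). Without CD80low replicate 1 of both genotypes it was called in controls (-0.76, adjusted p = 0.0414) and not in knockouts (-0.63, 0.0790). The 1110014O20Rik probe differed by 0.06 ± 0.276 between the subsets of control mice and by -0.46 ± 0.276 between those of knockout mice (adjusted p = 0.888 and 0.217). AK016742 differed by 0.10 and 0.46 and Hipk3 by -0.07 and -0.25, none called. The 2 comparisons between subsets share no arrays.

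For each family gene with a tested probe, the genes whose values over the 8 arrays lay nearest were found by the root mean square difference of centred log2 values. For the AK016742 probe of Hipk2 these were Pex26, a peroxisomal import factor (0.105), 1700029P11Rik (0.115) and Dmrta1, a DM-domain factor (0.115), against a standard deviation of 0.299 for the probe itself. Hipk3 lay nearest to Smim7 (0.0570), Ppp1r18 (0.0628) and the co-chaperone Bag4 (0.0669), with a standard deviation of 0.173. For Hipk1 the probe compared was NM_010432.1, which lay below its limit on 3 of 8 arrays, so its pattern includes signal below that limit. Nearest to it were the histone reader Phf21a (0.149), the death ligand Tnfsf10 (0.159) and Ddah1 (0.160), with 0.403 for the probe. The 1110014O20Rik probe was matched less closely: Cdkn1c, an inhibitor of cyclin-dependent kinases, lay at 0.294, Tstd2 at 0.394 and Bai1 at 0.397, with 0.710 for the probe. By p between genotypes in CD80high cells, Cdkn1c was the next probe after 1110014O20Rik (-0.89, limma, adjusted p = 1.00). That rank and the likeness use the same arrays, so the rank is not a separate result.

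Genes that act with these kinases, and related kinases such as the Dyrk and Clk kinases, were taken from lists of 52 genes. Of these, 36 were tested, among them 8 related kinases, and all 36 are called partner genes below. The others are not analysed here. Between the genotypes 0 of the 36 were called in either subset or averaged over both. Their median difference was 0.05 in CD80low and 0.02 in CD80high cells, against 0.01 and 0.00 over all 14392 tested genes. At an unadjusted p under 0.05 stood 1 gene in CD80low cells (6.34% of all genes) and 1 in CD80high cells (1.51%). The first was the death adaptor Fadd, at 233.8 and 271.4 on the control arrays of CD80low cells and 338.5 and 337.1 on the knockout ones (0.53 ± 0.222, SE, log2, adjusted p = 0.722). The second was the ubiquitin ligase Siah2, which targets Hipk2, at 144.7 and 152.6 on the control arrays of CD80high cells and 181.6 and 180.6 on the knockout ones (0.55 ± 0.196, adjusted p = 1.00).

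Between the subsets, 36.1% of the partner genes were called in control and 41.7% in knockout cells, near the 40.3% and 39.5% of all genes. In control cells 10 of 36 were lower in CD80high cells (18.7% of all genes) and 3 were higher (21.7% of all genes), with a median of -0.47 against -0.02 over all genes. In knockout cells 13 were lower (17.9%) and 2 higher (21.5%), with a median of -0.41 against -0.03. The 15 calls in knockout cells became fewer without knockout CD80high replicate 1, as did the calls over all probes. The control median was -0.31 without control CD80high replicate 1, -0.26 on the deposited values, -0.30 with no background correction and -0.29 with no filter on dim probes; the knockout median was -0.18 with no filter. Thymocyte, erythroid, myeloid, fibroblast and endothelial transcripts also differed between the subsets (marker means above), and their part in these counts was not tested. Without CD80low replicate 1 of both genotypes, the calls of Fadd in controls and of Tle1, Fbxo3, Ctbp2 and Smad3 in knockouts were lost. Calls over all probes also fell in both genotypes in that fit. With no filter on dim probes, the calls of Fadd and Pml in controls, Tle1 and Smad3 in knockouts and Siah1a in both were lost (limma, adjusted p = 0.0528 to 0.0764). A fit of only the arrays compared lost those of Siah1a in controls and of Tle1 and Smad3 in knockouts. The control call of Siah1a was also lost on the deposited values and with no quantile normalisation. The groups described next have 3 to 9 tested members each. Their counts stand against 18.7% of all genes called lower in control and 17.9% in knockout cells, and none is read as particular to its group.

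Among the genes of Hipk2 turnover, 7 were tested, and 3 were lower in control and 4 in knockout CD80high cells. Zyx, a focal adhesion protein that stabilises HIPK2 in human cells, fell from 7592 and 10913 in control CD80low to 2766 and 2133 in control CD80high cells (-1.94 ± 0.241, SE, log2, adjusted p = 1.52e-04). In knockout cells it was 9117 and 9109 against 2621 and 2209 (-1.93 ± 0.241, adjusted p = 1.58e-04). The arrays of the subsets lay far apart in both genotypes. The ubiquitin ligase subunit Wsb1 fell by 1.09 on the log2 scale in both, and Siah1a by 0.72 and 0.75 (adjusted p = 0.0447 and 0.0376). The call of Siah1a in control cells was lost without any 1 array other than control CD80low replicate 1 (adjusted p = 0.0524 to 0.280, with a difference of -0.35 without control CD80low replicate 2), and that in knockout cells without any 1 of the 6 arrays outside control CD80low (0.0545 to 0.120). Fbxo3 fell in knockout cells (-0.83 ± 0.212, adjusted p = 0.0121) and was -0.50 ± 0.212 in controls (0.0902). Its call was lost without replicate 1 of knockout CD80low (0.0762) or knockout CD80high cells (0.0957). Mdm2, the ubiquitin ligase of p53, went the other way, from 2815 and 2959 to 7535 and 8803 in control cells (1.53 ± 0.203, adjusted p = 2.33e-04) and by 1.25 in knockout cells.

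Nuclear body and SUMO genes had 5 tested members, of which 2 were lower in each genotype and none was higher. Daxx, a chaperone of histone variants that Hipk1 and Hipk2 bind, read 1410 and 1629 in control CD80low and 615 and 538 in control CD80high cells (-1.53 ± 0.199, SE, log2, adjusted p = 2.10e-04). The knockout difference was -1.22 ± 0.199. Pml, which builds the nuclear bodies, fell by 0.82 and 0.86 (adjusted p = 0.0364 and 0.0303). The control call of Pml was lost without control CD80low replicate 2, either control CD80high array or either knockout CD80high array (adjusted p = 0.0532 to 0.202), and the knockout call without knockout CD80low replicate 2 or either knockout CD80high array (0.0983 to 0.204). None of the 4 tested genes of the p53 response list was called in either genotype. Ep300, the p300 acetyltransferase, differed by -0.59 ± 0.223 in control and -0.14 ± 0.223 in knockout cells (adjusted p = 0.0613 and 0.666), and the p53 cofactor Trp53inp1 by 0.22 and 0.32 (0.386 and 0.200).

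All 3 tested corepressors were lower in knockout CD80high cells and 2 of 3 in controls. The TGF-beta corepressor Ski went from 471 and 593 to 173 and 180 in control cells (-2.16 ± 0.276, SE, log2, adjusted p = 1.83e-04) and by -1.69 ± 0.276 in knockout cells. Tle1, a Groucho corepressor, fell by 0.71 and 0.62, and Ctbp2, whose relative Ctbp1 is a Hipk2 substrate, fell by 0.87 in knockout cells (-0.47 in controls, adjusted p = 0.146). Leaving out any 1 of the 4 knockout arrays ended the Tle1 call in knockout cells (adjusted p = 0.0610 to 0.138). Its call in controls was lost without control CD80low replicate 2 (0.0747) or control CD80high replicate 1 (0.109). The Ctbp2 call was lost without knockout CD80low replicate 1 (0.124) or either knockout CD80high array (0.0814 and 0.0529), on the deposited values (-0.43, 0.0617) and with no quantile normalisation (0.0592).

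Among 9 tested genes of Wnt, TGF-beta and developmental signalling, Runx1 was lower in CD80high cells of both genotypes. Its probe read 222.4 and 195.5 in control CD80low cells and was not above background in control CD80high cells (106.7 and 101.4, adjusted p = 8.46e-05), so no size is given there. In knockout cells it read 258.0 and 203.4 against 112.1 and 108.1 (-1.94 ± 0.220, SE, log2, adjusted p = 8.53e-05). The knockout value was -1.06 on the log2 of the deposited values. Runx1 is also expressed by thymocytes, and their part in this difference was not tested. Smad3 fell in knockout cells (-0.70 ± 0.236, adjusted p = 0.0414) and was -0.50 in controls (0.121); the call was lost without either knockout CD80low array (0.170 and 0.0693) or knockout CD80high replicate 1 (0.252). Tcf7l1, a Wnt pathway repressor phosphorylated by Hipk2 in frog embryos, rose by 1.11 ± 0.229 in control and 1.15 ± 0.229 in knockout cells (adjusted p = 0.00370 and 0.00307). Fadd rose in control cells (0.72 ± 0.222, adjusted p = 0.0277) and was 0.10 in knockout cells (0.770); the difference between these was not called as an interaction. The Fadd call was lost without replicate 1 of control CD80low (0.129) or control CD80high cells (0.200).

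The related Dyrk and Clk kinases had 8 tested members. Of these, 2 were called in each genotype, the splicing kinases Clk2 and Clk3, both lower in CD80high cells. Clk2 read 809 and 580 in control CD80low and 347 and 309 in control CD80high cells (-1.26 ± 0.233, SE, log2, adjusted p = 0.00189), and differed by -0.99 ± 0.233 in knockout cells. Clk3 differed by -0.75 ± 0.195 and -0.88 ± 0.195 (adjusted p = 0.0127 and 0.00564). The knockout call of Clk2 was lost without knockout CD80high replicate 2 (0.0554), and those of Clk3 without control CD80high replicate 2 in controls (0.0943) and knockout CD80high replicate 1 in knockouts (0.0502). The interaction was called for 0 of the 36 partner genes by limma, and 0 were below an unadjusted p of 0.05.

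**Figure D4:**
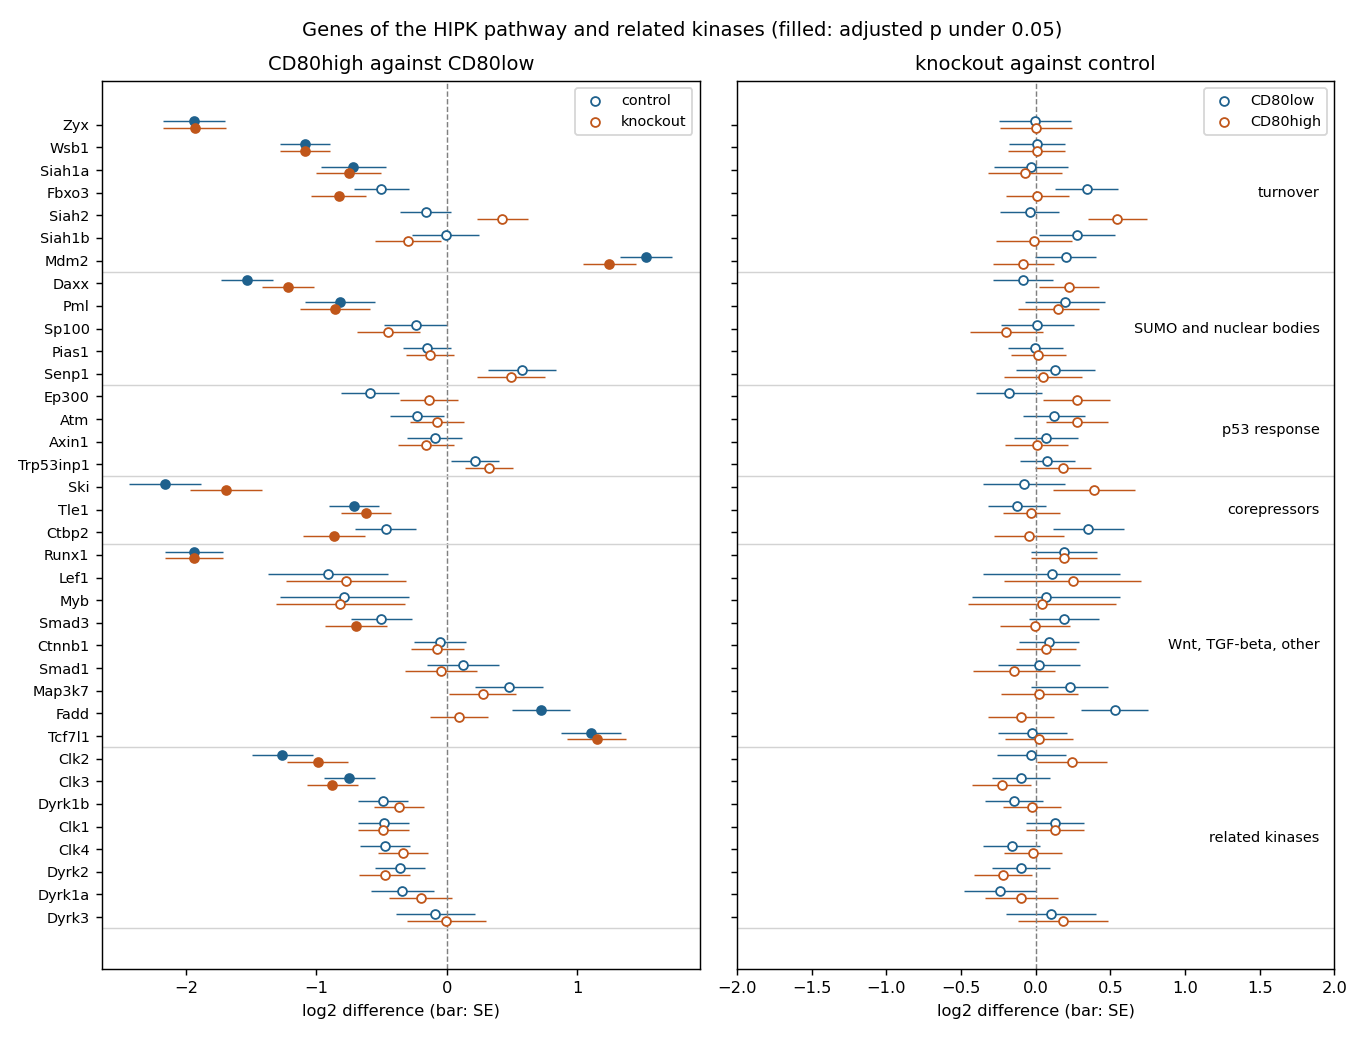
Log2 differences (point) with their SE (bar) of the 36 tested partner genes, grouped by role, for CD80high against CD80low cells (left, by genotype) and knockout against control (right, by subset); filled points have an adjusted p under 0.05. Filled points appear only on the left, where Zyx (-1.94 and -1.93) and Ski (-2.16 and -1.69) lie far to the left and Mdm2 (1.53 and 1.25) to the right; the Runx1 probe was not above background in control CD80high cells, so its control point has no exact size.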

How the data were processed

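Values were the deposited intensities of 8 Illumina bead arrays, on a linear scale, which the authors had made comparable across arrays by a method not given in the sources used here. Per the labels' protocols, 200 ng of total RNA of sorted cells was amplified and biotin-labelled. A second table, with 8 signal columns named only by slide and position, was not used. Intensities were background-corrected (normexp, offset 16), log2-transformed and quantile-normalised with limma 3.58.1 in R 4.3.3, and so were normalised a second time.

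A probe was tested if above the background limit in both arrays of at least 1 group, which left 23378 probes (50.7%). The limit is the mode of the array's values plus a one-sided 0.95 normal quantile of the spread below that mode. All comparisons were contrasts of group means in a single limma model (4 residual and 6.05 prior degrees of freedom). Two-sided p-values were adjusted over all tested probes (Benjamini-Hochberg). They rest on the spread between 2 biological replicates per group, pooled over the 4 groups, and on a prior spread taken from all tested probes. A partner gene was represented by its tested probe of highest mean.

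Probe names came from the platform table (35667 probes with 1 symbol, 10422 with none); 28519 of 28742 Entrez identifiers matched RefSeq, which also gave synonyms and start regions. Named were all family probes, the 3 nearest genes of each, and called partners up to 4 per list and comparison, or else 2 by p; between genotypes only partners under an unadjusted p of 0.05 are named. Members and lists were chosen with earlier results of these data known. The fit was tested on simulated data.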

Additional observations from a re-analysis of the deposited data

How the results depend on the processing

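Over 20 alternative settings, 642 of 696 values of the 6 tested family probes kept their direction and their side of the threshold, 43 uncalled values changed sign, and none that was called reversed. Of the 4 tested probes listed by symbol, 0 were called between genotypes in every setting run. Their count between subsets of control mice, 1, was 0 with 1 probe per gene symbol, which leaves out NM_010433.1, and 0 to 1 over the arrays left out. In knockout mice it was 0, and 2 without CD80low replicate 1 of both genotypes. The partner count between subsets of knockout mice was 15, and it fell most without knockout CD80high replicate 1, where the count over all probes fell too. For 1110014O20Rik averaged over both subsets, -1.20 was past the threshold under a trended robust prior (adjusted p = 0.0313) and a replicate block within subset (adjusted p = 0.0408), not under 1 block over all arrays (0.0671). The difference ranged from -1.38 to -1.01.

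Labels do not say that a replicate number marks shared mice. Deviations of same-numbered arrays correlated at 0.534 in CD80low and 0.448 in CD80high cells and at 0.0777 to 0.131 across subsets. The replicate block also called Myak between subsets of control mice (adjusted p = 0.0390), and the block within subset called it in both genotypes (0.0246 and 0.0331) and Smad3 in controls (0.0324). Apart from the 1110014O20Rik call averaged over both subsets, given above, neither block changed another call of a family probe. Counts of all probes moved from 1 to as many as 28 in CD80low cells and 16 averaged over both subsets, from 0 to 7 for the interaction, and from 8766 to 5761 between control subsets without control CD80high replicate 1. Of 1360 values of named partner genes, 1252 kept call and direction, 58 lost the call, 1 gained it, and 0 called values reversed. No scaling moved the median of all probes by over 0.1 or the share of higher calls between subsets by over 10 percentage points. Signal close to background limits NM_010433.1, above its limit on every array, and NM_010432.1, above it on 5 of 8; the untested probes were not above it on both arrays of any group.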
